A study of Mus musculus with 8 samples.

Results

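DNA double-stranded breaks (DSBs) were examined at 40 genes of the Wnt pathway in mouse embryonic stem (ES) cells, of 22380 protein-coding genes in the GENCODE M1 annotation of mm9. The members are 19 Wnt ligands, 10 Frizzled receptors, the 2 co-receptors Lrp5 and Lrp6, and 9 transducers, and they were listed by name. All 40 symbols were found in the annotation. Wnt ligands are secreted lipid-modified proteins that bind a Frizzled receptor together with Lrp5 or Lrp6. Binding recruits Dishevelled (Dvl) and Axin to the membrane, which stops the complex of Axin, Apc and the kinase Gsk3b from marking β-catenin (Ctnnb1) for degradation. β-catenin then enters the nucleus and acts with DNA-binding proteins such as Lef1, and in ES cells the pathway is known to favor self-renewal.

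The breaks were mapped by DSB-seq, in which terminal transferase adds biotin to DNA ends in fixed nuclei and the labeled DNA is captured and sequenced. Chd1 KO ES cells (Chd1Δ/Δ) lack both copies of Chd1, a chromatin remodeler, while control cells (Chd1fl/Δ, titled WT in the labels) keep 1 floxed copy and also carry 1 deleted copy. Both were established ES cell lines grown in serum with LIF. Each genotype had 2 replicates, which the authors combined before calling peaks, so 1 peak list per genotype was analyzed here, it gives no replicate error and no test between genotypes was made. The lists held 5671 peaks in Chd1 KO and 54 in control, and the depth behind them, recovered from the lowest local background, was 29.8 and 27.6 (in units of 1000000 reads). They carry no expression, so neither the loss of Chd1 nor the cell type could be checked in them.

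A gene was counted when the summit of a peak, its position of highest signal, lay within 1 kb of any annotated transcription start site (TSS) of that gene. In Chd1 KO, 17 of the 40 members had such a summit, or 42.5% (Wilson 95% interval 28.5 to 57.8), beside 15.9% of all protein-coding genes. With a fold enrichment of at least 5 required, 5 members were left, beside 4.87% of all genes. The 17 were 7 of 19 ligands (Wnt2b, Wnt4, Wnt5b, Wnt6, Wnt7a, Wnt7b and Wnt9b), 5 of 10 receptors (Fzd3, Fzd4, Fzd5, Fzd6 and Fzd7), Lrp6 of the 2 co-receptors, and 4 of 9 transducers (Dvl1, Axin1, Axin2 and Ctnnb1). A further 3 members, Wnt3a, Wnt9a and Fzd8, had a summit only inside the gene body and more than 1 kb from every TSS of the gene, beside 2.88% of all protein-coding genes. The other 20 members had neither. With Wnt5b and Axin2, which had summits at both places, 5 members had a summit in the gene body, beside 4.14% of all protein-coding genes. In control, none of the 40 members had a summit at a TSS or in the gene body, which allows a share of up to 7.50%, and 0.0313% of all protein-coding genes had one. The control summit nearest to a member TSS lay 899 kb away, beside Fzd4. Intervals and limits of this kind cover counting error only.

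**Figure D1:**
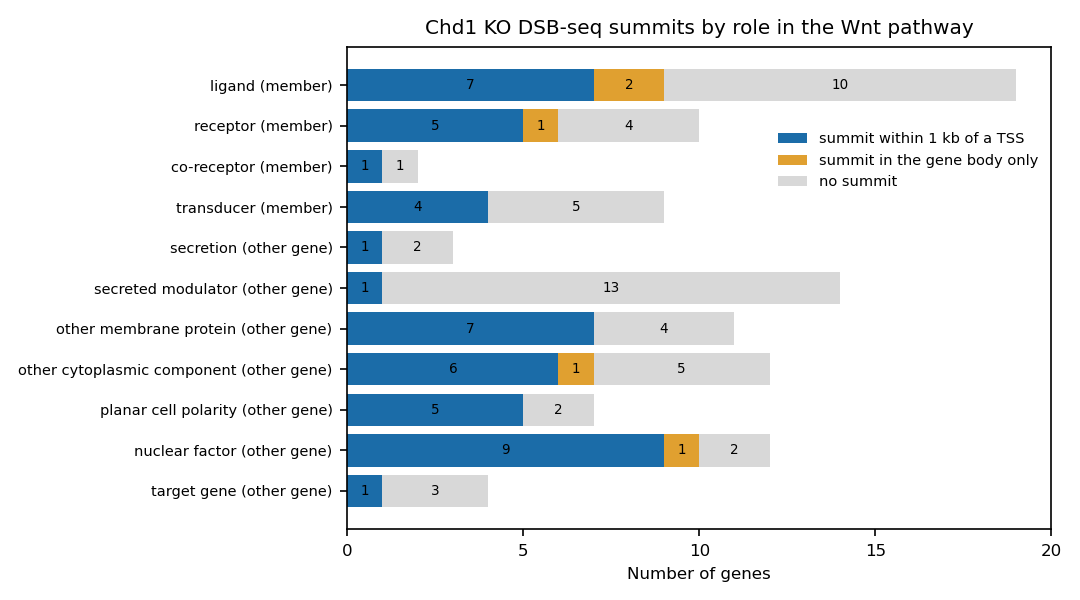
Number of genes (x axis) with a Chd1 KO summit within 1 kb of a TSS (blue), only in the gene body (orange) or with no summit (grey), for each role in the Wnt pathway. Members stand in the upper 4 bars and the 63 other pathway genes below, and each number inside a bar is its count of genes.

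Among the ligands, Wnt5b had the highest fold enrichment near a TSS. Its peak at chr6:119493998-119494576 had its summit 37 bp upstream of the outermost TSS, with 30 extended reads (exact Poisson 95% interval 20.2 to 42.8) against a local background of 4.62 reads, and a fold enrichment of 5.52. Fold enrichment compares the reads there with those expected locally in the same combined library, after 1 is added to both, so it is lower than the plain quotient of reads and background. The 136 bases below, at chr6:119494337-119494472 of mm9 on the minus strand, are the part of the 200 bp around the summit that lies upstream of the gene. They show how the strongest ligand peak reads, with the longest unbroken run of G and C, 25 bp, in capitals.
Wnt5b: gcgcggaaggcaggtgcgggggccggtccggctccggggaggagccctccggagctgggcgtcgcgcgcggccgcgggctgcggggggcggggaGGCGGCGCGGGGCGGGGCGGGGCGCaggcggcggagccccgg

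The GC content of these bases was 88.2%. Wnt5b, a ligand best known for signaling that does not pass through β-catenin, had another Chd1 KO summit in an intron, 12.1 kb from its nearest own TSS, with 20 reads and a fold enrichment of 4.57. That second summit lay within 1 kb of a TSS of Fbxl14, a gene that starts inside the Wnt5b intron, so the genes cannot be told apart as its source. Wnt5a, the paralog of Wnt5b, had no summit, and the nearest one lay 882 kb from its TSSs.

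Wnt2b followed with 28 reads (18.6 to 40.5) and a fold enrichment of 5.33 at chr3:104764595-104764836, 79 bp upstream of its single TSS. Its paralog Wnt2 had no summit, the nearest lying 336 kb away. Both Wnt7 paralogs, which are known for roles in limb and nervous system development, had a summit just upstream of a TSS. Wnt7a had 24 reads (15.4 to 35.7) and a fold enrichment of 4.70 at chr6:91361312-91361561, 67 bp upstream. Wnt7b had 21 reads (13 to 32.1) and a fold enrichment of 3.81 at chr15:85411070-85411369, 103 bp upstream of its nearest TSS and inside an intron of a longer transcript. A TSS of AU022754 also lay within 1 kb of the Wnt7b summit. The intervals of these summits overlap, so the order of their reads is within counting error.

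The remaining ligand summits lay on both sides of the TSS. Wnt4, which acts in kidney and reproductive tract development, had 23 reads (14.6 to 34.5) and a fold enrichment of 3.57 at chr4:136833369-136833750, 161 bp downstream in an untranslated leader exon. Wnt6 had a pair of peaks, at chr1:74818201-74818435 with 22 reads and a fold enrichment of 4.05, 111 bp upstream, and at chr1:74818564-74818763 with 19 reads and a fold enrichment of 3.56, 202 bp downstream. Wnt9b, a ligand needed for the formation of kidney tubules, had 24 reads (15.4 to 35.7) and a fold enrichment of 4.83 at chr11:103610937-103611227, with the summit in coding sequence 71 bp downstream of its TSS. Wnt3a, the ligand most often used to activate β-catenin in culture, had no summit near its TSS but one in an intron 26.5 kb downstream, with 19 reads and a fold enrichment of 4.02. Wnt9a likewise had its only summit in an intron 22.6 kb downstream, with 21 reads and a fold enrichment of 4.44. The ligands Wnt1, Wnt2, Wnt3, Wnt5a, Wnt8a, Wnt8b, Wnt10a, Wnt10b, Wnt11 and Wnt16 had none at all.

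Several Wnt genes lie in neighboring pairs, and in 2 of the 4 pairs a summit near a TSS was found at one gene only. Wnt6 and Wnt10a point the same way with 6.20 kb between them on chromosome 1, and Wnt6 had both of its summits while Wnt10a had none (GC content 63.0% and 59.8% within 1 kb of the outermost TSS). Wnt9b and Wnt3 are divergent genes on chromosome 11 with a gap of 24.3 kb, and the summit lay at Wnt9b. Within 1 kb of the outermost TSS, Wnt9b had the lower GC content (55.8% beside 58.5%). Within 500 bp it had the higher one (64.7% beside 63.0%). Wnt3a and Wnt9a, 16.2 kb apart on chromosome 11, both had a summit in the gene body only. Wnt1 and Wnt10b, 11.7 kb apart on chromosome 15, had none.

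Of the Frizzled receptors, Fzd3, which serves planar cell polarity and axon guidance, had the highest fold enrichment, 5.38, with 26 reads (17.0 to 38.1). Its peak at chr14:65880705-65881382 was the widest of all peaks near member TSSs, 678 bp, and the summit lay 21 bp upstream of an internal TSS, within untranslated sequence of the first exon of the longest transcript. The 82 bases below, at chr14:65881301-65881382 of mm9 on the minus strand, are the part of that peak upstream of the gene and stop short of the summit, with the longest run of G and C in capitals.
Fzd3: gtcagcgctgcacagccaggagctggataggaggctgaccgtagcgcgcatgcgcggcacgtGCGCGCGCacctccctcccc

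This upstream piece had a GC content of 72.0% and a run of only 8 bp. Over the whole Fzd3 peak the longest run was 16 bp, and its center lay 473 bp from the summit, the largest such distance among the member peaks near a TSS. Fzd6, its paralog, had 20 reads (12.2 to 30.9) and a fold enrichment of 4.73 at chr15:38837585-38837886, 153 bp upstream, with a TSS of Gm17265 also within 1 kb. Fzd3 and Fzd6 were thus the pair of Frizzled paralogs in which both had a summit near a TSS.

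The other Frizzled groups were mixed. Fzd7, a receptor expressed in pluripotent cells, had a summit with 17 reads (9.90 to 27.2) and a fold enrichment of 3.81 at chr1:59538888-59539087, 20 bp upstream, and another with 21 reads and a fold enrichment of 4.85 at chr1:59539576-59539849, 740 bp downstream. Its relatives Fzd1 and Fzd2 had none, the nearest lying 622 and 28.5 kb away. Fzd4, which also binds Norrin and acts in retinal blood vessels, had the fewest reads of the summits near member TSSs, 16 (9.15 to 26.0), with a fold enrichment of 4.01 at chr7:96552131-96552426. That summit lay 546 bp upstream, with a TSS of Tmem135 within 1 kb. Fzd9 and Fzd10 had none. Fzd5 had 18 reads (10.7 to 28.4) and a fold enrichment of 3.86 at chr1:64784225-64784545, 123 bp upstream.

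Fzd8, the closest relative of Fzd5, missed the window. Its summit at chr18:9213800-9214072 had 23 reads (14.6 to 34.5), an interval that overlaps that of Fzd5, and a fold enrichment of 4.94. It lay in coding sequence 1119 bp downstream of its TSS. With a window of 2 kb, Fzd8 was the single member gained, and 18 members had a summit, beside 16.6% of all protein-coding genes.

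**Figure D2:**
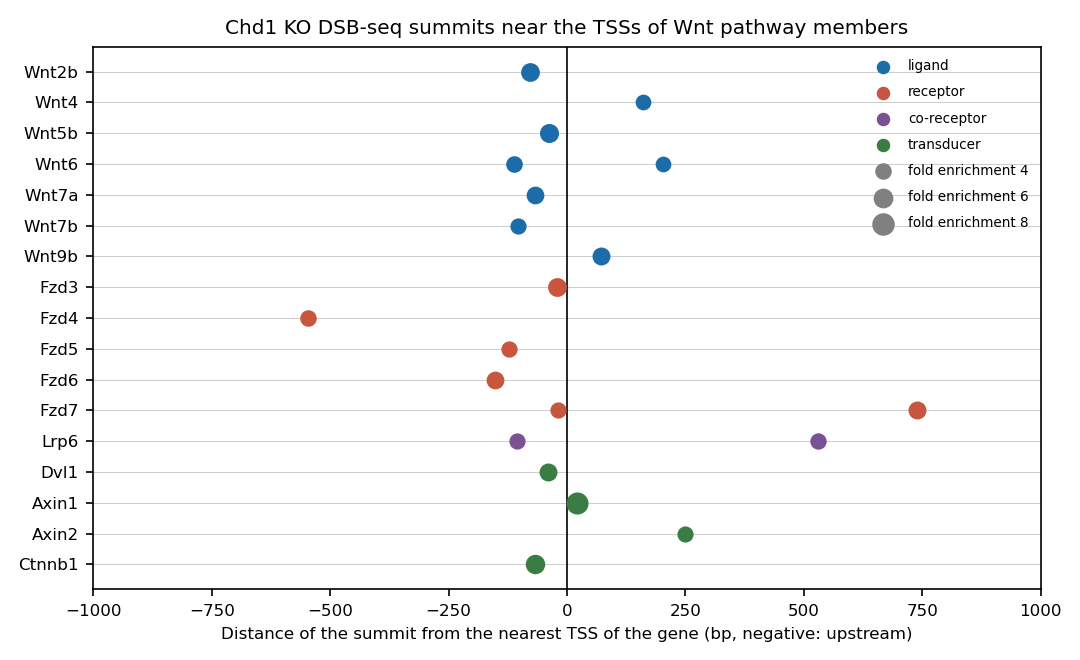
Position of the 20 Chd1 KO summits within 1 kb of a member TSS (x axis, bp from the nearest TSS of the gene, negative upstream), 1 row per gene, colored by role, with the area of each point proportional to the fold enrichment. Of the 20 summits, 17 lay within 250 bp of a TSS. So did 2670 of 3878 pairs of a protein-coding gene and a summit near its TSS, and 21 of 32 in the other Wnt pathway genes. Axin1 had the highest fold enrichment, 7.66.

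Lrp5 and Lrp6 are related single-pass receptors that both carry Wnt signals. Lrp6 had a peak at chr6:134516737-134517250 with 20 reads (12.2 to 30.9) and a fold enrichment of 3.83, 106 bp upstream, and another at chr6:134516352-134516565 with 21 reads (13 to 32.1) and a fold enrichment of 3.91, 529 bp downstream in an intron. The 200 bases around the second summit, at chr6:134516302-134516501 of mm9 on the minus strand, are shown as those of the higher of the pair, with their longest run, 23 bp, in capitals. Their GC content was 68.0%, the lowest of the windows printed here.
Lrp6: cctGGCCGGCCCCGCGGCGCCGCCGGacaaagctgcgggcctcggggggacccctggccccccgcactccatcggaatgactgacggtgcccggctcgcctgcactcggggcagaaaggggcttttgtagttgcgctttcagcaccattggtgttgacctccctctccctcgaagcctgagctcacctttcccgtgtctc

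Lrp5 had no summit, and the nearest lay 27.0 kb from its TSS. Within 1 kb of the outermost TSS, Lrp5 had a GC content of 62.4%, beside 59.6% in Lrp6. Within 500 bp the order was the other way, 69.5% beside 75.9%. The longest run near a TSS was 30 bp in Lrp5 and 25 bp in Lrp6.

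The strongest summit of all members was at Axin1, the scaffold of the β-catenin destruction complex. Its peak at chr17:26275613-26276179 had 41 reads at the summit (29.4 to 55.6) over a background of 4.48, with a −log10 q-value of 20.5 and 7.66-fold enrichment. That fold enrichment ranked 74 of the 5671 Chd1 KO peaks. The summit lay 22 bp downstream of the nearest TSS, in untranslated exon sequence that is not printed here. The 80 bases below, at chr17:26275987-26276066 of mm9 on the plus strand, are the start of the following intron, which lies within 150 bp of the summit and under the same peak. Ctnnb1, which encodes β-catenin, came next among the transducers with 31 reads (21.1 to 44) over a background of 4.54 and a fold enrichment of 5.78 at chr9:120842685-120843102. Its summit lay 68 bp upstream of the nearest TSS, inside the intron of a longer transcript, and 168 of the 200 bases around it are shown (chr9:120842768-120842935, plus strand) because that summit had the highest GC content in the 100 bp on both sides, 87.6%. Capitals mark the longest run of G and C, which in Axin1 is the first of 2 runs of 9 bp.
Axin1: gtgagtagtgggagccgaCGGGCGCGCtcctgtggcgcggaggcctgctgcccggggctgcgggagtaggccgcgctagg
Ctnnb1: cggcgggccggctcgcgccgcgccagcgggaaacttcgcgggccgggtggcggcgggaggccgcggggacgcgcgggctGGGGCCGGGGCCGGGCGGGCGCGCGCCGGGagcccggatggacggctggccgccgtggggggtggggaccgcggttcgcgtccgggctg

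The run of 30 bp in Ctnnb1 lay almost at the summit, with its center 6 bp away, whereas the longest run under the Axin1 peak, 23 bp, had its center 269 bp from the summit. The interval of the Axin1 reads lay above the reads of every other member summit except Wnt5b and Ctnnb1. Dvl1, which relays the signal from Frizzled to Axin, had 27 reads (17.8 to 39.3) and a fold enrichment of 4.84 at chr4:155221436-155221820, 40 bp upstream of its nearest TSS. That Dvl1 summit lay inside the gene, in an untranslated leader exon 0.124 kb from the outermost TSS. Axin2, a scaffold like Axin1 and a direct target gene of the pathway, had 20 reads (12.2 to 30.9) and a fold enrichment of 3.78 at chr11:108782168-108782534, 249 bp downstream, and an intron summit 7.44 kb downstream with 21 reads and a fold enrichment of 4.18. Dvl2, Dvl3, Apc, Gsk3b and Lef1 had no summit, the nearest lying between 19.5 kb (Dvl2) and 412 kb (Lef1) away.

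**Figure D3:**
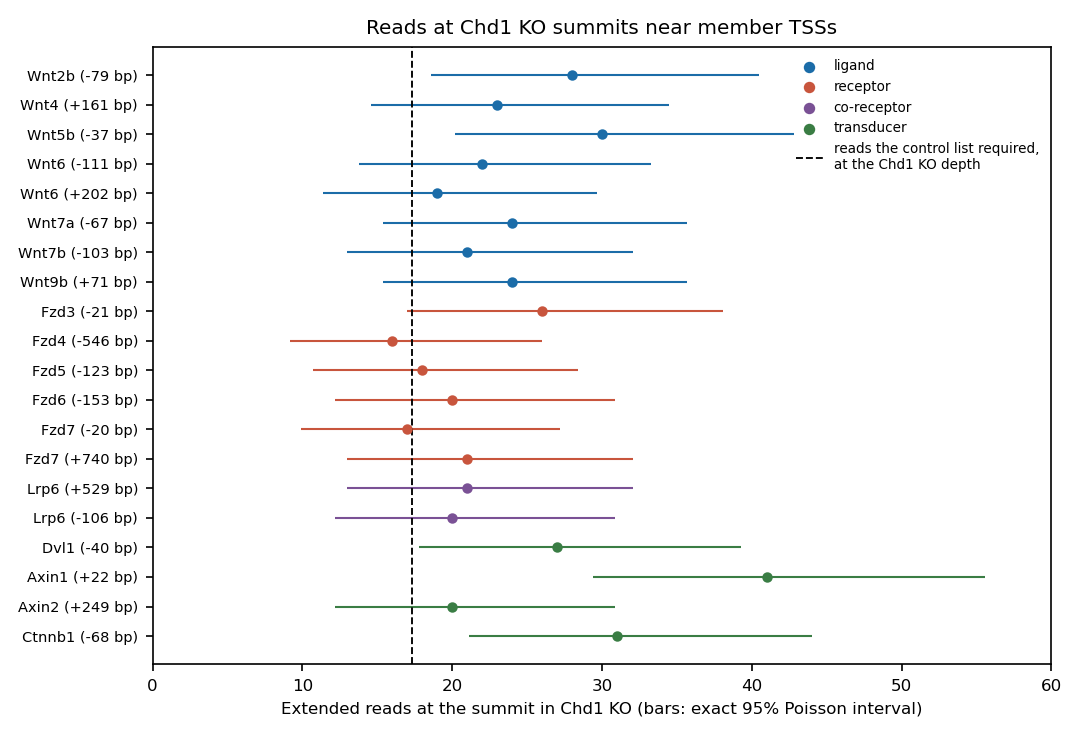
Extended reads at each of the 20 Chd1 KO summits near a member TSS (x axis), with exact 95% Poisson intervals as bars, colored by role. The dashed line marks 17.3 reads, the 16 reads that the control list required at its lowest background, scaled to the Chd1 KO depth. The 16 is computed from the weakest control p-value, and no listed control peak had fewer than 17 reads. Axin1 lies highest with 41 reads, and Fzd4 with 16 and the upstream Fzd7 summit with 17 lie left of the line.

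The control list was stricter than that of Chd1 KO, and the reads at the member summits were set against what it required. The weakest control peak had a −log10 p-value of 7.13, beside 4.88 in Chd1 KO, which at the lowest control background takes 16 extended reads. Scaled to the control depth, the reads at 18 of the 20 member summits reached that number, from 15.8 at the upstream Fzd7 summit and 14.8 at Fzd4, which did not, up to 38.0 at Axin1. With the local background of each summit in place of the lowest one, 14 of 20 did. The same shares over all Chd1 KO summits near a TSS are not given here, so these counts do not set the members apart. When the lowest p-value of the control list was applied to Chd1 KO as well, all 17 members were retained, beside 14.2% of all protein-coding genes. The lists do not hold peaks shorter than 200 bp, and reads at these positions in control are not given by them, so no ratio between genotypes was formed.

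The 20 member summits near a TSS had fold enrichments and reads close to those of other genes. Their median fold enrichment was 4.37 (range 3.56 to 7.66) and their median read number 21.5 (16 to 41), beside 4.52 and 21.0 over all 3878 pairs of a protein-coding gene and a summit near its TSS. Of the 20, 13 lay upstream of the nearest TSS and 7 downstream, or 35.0% downstream (18.1 to 56.7), with a median of −38.5 bp. Over all such pairs 60.8% were downstream, with a median of 45.0 bp, and in the other Wnt pathway genes 23 of 32 were. The side depended on which TSS was used, since with the outermost TSS alone 10 of 19 member summits were downstream and the median was 51.0 bp. By the annotation of the gene itself, 9 of the 20 lay upstream of the gene, 7 in untranslated leader exons, 3 in introns and 1 in a coding exon. A second summit near a TSS was found at 3 of the 17 members (Wnt6, Fzd7 and Lrp6), or 17.6%, beside 8.40% of the 3560 protein-coding genes with a summit.

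The sequence under the member summits was GC-rich, as it was under other Chd1 KO summits near TSSs. In the 100 bp on both sides of the summit, the median GC content was 78.9% at the members and 78.1% at all 3583 summits near a protein-coding TSS, beside 58.7% around the outermost TSS of all protein-coding genes. The median number of CpG dinucleotides in these windows was 29.5, 28 and 10.0, respectively. A potential G-quadruplex motif, 4 blocks of GGG separated by 1 to 7 bases of any kind on either strand, stood in 13 of the 20 member windows (65.0%), in 48.5% of all summit windows near TSSs and in 16.1% of all TSS windows. It stood at the outermost TSS of 3 of the 23 members without a summit near a TSS, in windows that are not centered on a summit. Within 500 bp of any TSS, the motif stood in 16 of the 17 members with a summit (94.1%) and in 18 of the 23 without (78.3%). In protein-coding genes with and without a summit near a TSS it was 86.3% and 45.1%. The GC box GGGCGG, on either strand, stood in 16 of the 20 member windows (80.0%), in 82.0% of all summit windows and in 40.0% of all TSS windows. At the outermost TSS of the 23 members without a summit near a TSS it stood in 13 (56.5%). The peaks had a median width of 301 bp and a median longest run of G and C of 21.0 bp, beside 317 and 20.0 bp over all those peaks. In 15 of the 20 member peaks the run was centered within 100 bp of the summit. Because the run was searched only inside the peak, it could not lie far from the summit. The share over all those peaks is not given here.

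Promoter GC content, taken within 1 kb of the outermost TSS, was high among the members. Its median was 62.2% in the 17 members with a summit near a TSS and 59.5% in the 23 without, beside 58.6% and 49.8% in protein-coding genes with and without one. The difference of 2.65 percentage points between the members became 5.69 when only 500 bp on both sides of the TSS were read. Below a GC content of 55%, 2 of 7 members had a summit (Fzd6 and Ctnnb1), beside 5.78% of all genes. Between 55% and 60% it was 2 of 10 (Wnt9b and Lrp6), beside 29.2%. Between 60% and 65% it was 11 of 20, beside 55.2%, and at 65% or more it was 2 of 3 (Wnt4 and Wnt7b, without Gsk3b), beside 76.3%. Fzd10, whose 65.0% is rounded up, counts in the band below. In the band from 60% to 65%, which held 20 of the 40 members, their share was thus near that of all genes. The value of Ctnnb1, 41.7%, comes from an outermost TSS 4.53 kb upstream of its summit, and the highest value over its 13 TSSs was 66.0%.

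**Figure D4:**
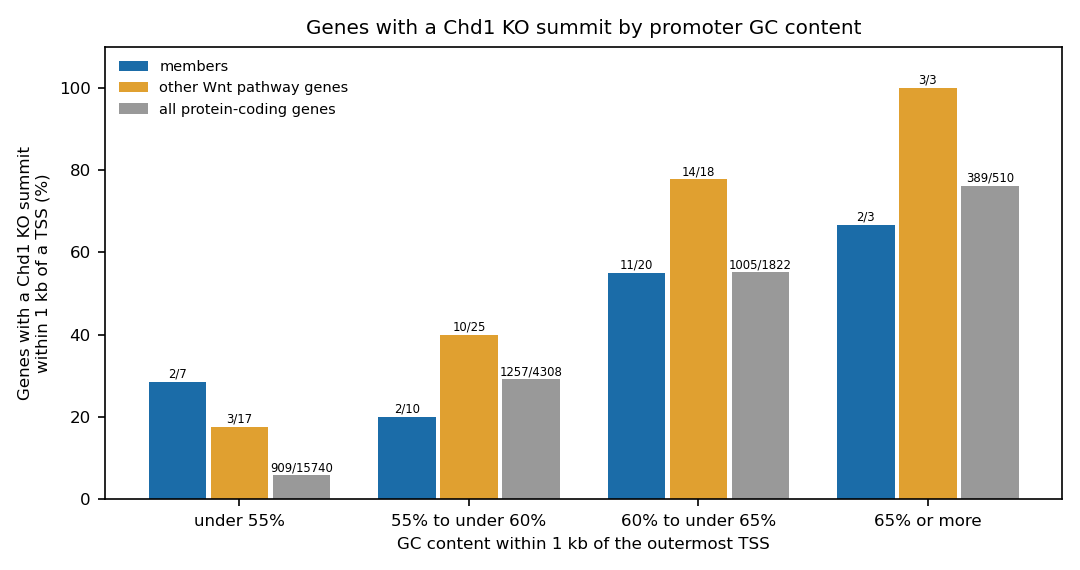
Share of genes with a Chd1 KO summit within 1 kb of a TSS (y axis, %) in 4 bands of promoter GC content, for members (blue), the other Wnt pathway genes (orange) and all protein-coding genes (grey), with the counts above each bar. In the band from 60% to 65%, 11 of 20 members and 55.2% of all genes had a summit.

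The longest run of G and C within 1 kb of any TSS had a median of 23.0 bp (14 to 40) in members with a summit near a TSS and of 19.0 bp (10 to 30) in those without, beside 22.0 and 11.0 bp in all protein-coding genes with and without one. The difference between the members narrowed from 4.00 to 2.00 bp within 500 bp of a TSS. Runs of 20 bp or more were found in 13 of the 17 (76.5%) and in 9 of the 23 (39.1%). In all protein-coding genes with and without a summit near a TSS it was 64.2% and 9.97%. Of the 8 members with a longest run under 16 bp, 1 had a summit near a TSS (12.5%), beside 2.73% of all genes with such runs. With runs of 16 to 19 bp it was 3 of 10 (30.0%), beside 24.6%, and with 20 to 27 bp it was 8 of 13 (61.5%), beside 49.7%. Of the 9 members with a run of at least 28 bp, 5 had one (55.6%), beside 70.3%. These 5 were Wnt4, Wnt7b, Dvl1, Axin2 and Ctnnb1, and the 4 without were Wnt3a, Wnt5a, Wnt9a and Lrp5. The runs of Wnt4, Wnt7b, Wnt3a, Wnt9a and Lrp5 are printed to let them be read side by side (that of Ctnnb1 is above, and those of Dvl1 and Axin2 lie in untranslated sequence), and this set was chosen after the values were seen. All letters belong to the run, on the strand of the gene. Their mm9 positions are chr4:136833342-136833381 (Wnt4), chr15:85411191-85411221 (Wnt7b), chr11:59104358-59104385 (Wnt3a), chr11:59120261-59120290 (Wnt9a) and chr19:3686597-3686626 (Lrp5).
Wnt4: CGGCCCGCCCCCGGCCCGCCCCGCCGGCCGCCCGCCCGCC
Wnt7b: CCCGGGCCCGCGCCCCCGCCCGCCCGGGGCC
Wnt3a: GCCCCGCCCCCGCCGCCCCGCGCCGCCC
Wnt9a: CGGCGGCCGCGGCGGCGGCGGCGGGCGCGC
Lrp5: GGCGGGGGGCGCGGGCGGCGCGGGGGGCGG

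The Wnt7b run of 31 bp lay wholly under its peak, and 13 of the 40 bp of the Wnt4 run did. The runs of Wnt3a, Wnt9a and Lrp5, which no peak covered, had their centers 117, 155 and 47 bp upstream of a TSS. A long run close to the TSS was present in members with and without a summit. At the other end, Fzd6 had a summit with a longest run of 14 bp near its TSS.

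The 5 members with the highest promoter GC content among those without a summit near a TSS were Gsk3b (65.7%), Fzd10 (65.0%), Wnt9a (64.8%), Fzd8 (62.8%) and Lrp5 (62.4%). Wnt9a and Fzd8 had their summits in the gene body. Gsk3b, the kinase that phosphorylates β-catenin, spans 157 kb, the longest of the members, and had no summit, the nearest lying 221 kb from a TSS. Its longest run, 17 bp at chr16:38089487-38089503 of mm9 on the plus strand, is shown in capitals for comparison with the runs above.
Gsk3b: CGCGGGCGGCGGGGCGC

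**Figure D5:**
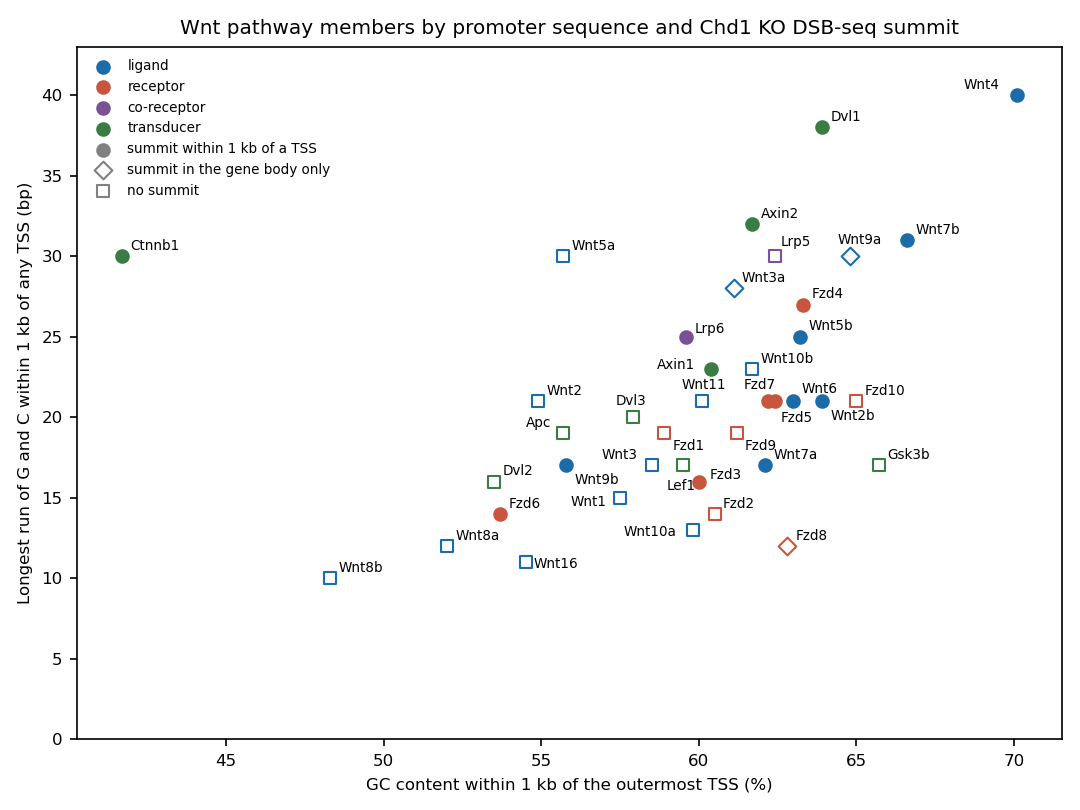
Longest run of G and C within 1 kb of any TSS (y axis, bp) against GC content within 1 kb of the outermost TSS (x axis, %) for the 40 members, colored by role. Filled circles had a Chd1 KO summit within 1 kb of a TSS, diamonds only in the gene body and open squares none. Filled and open symbols overlap between 60% and 65%, and Ctnnb1 stands apart at 41.7% because of its distant outermost TSS.

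The 17 members with a summit near a TSS had a median gene length of 30.4 kb (4.80 to 120.5 kb) and the 23 without one of 15.5 kb (2.29 to 157 kb). In all protein-coding genes the medians were 40.4 and 12.7 kb. The difference of 14.9 kb between the members fell to 7.35 kb when gene length was replaced by the average over its coding transcripts. Members were long and short on both sides. Fzd7 at 4.80 kb and Fzd4 at 5.75 kb had a summit, while Gsk3b, Lef1 at 114 kb, Lrp5 at 102 kb and Apc at 101 kb had none.

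Other genes of the Wnt pathway were read from a list of 63, ordered by role. Of these, 30 (47.6%, 35.8 to 59.7) had a Chd1 KO summit within 1 kb of a TSS, beside 15.9% of all protein-coding genes. None had a control summit there or in the gene body, beside 0.0313% of all protein-coding genes. Below a promoter GC content of 55%, 3 of 17 had a Chd1 KO summit near a TSS, beside 5.78% of all genes. Between 55% and 60% it was 10 of 25, beside 29.2%. Between 60% and 65% it was 14 of 18, beside 55.2%, and at 65% or more 3 of 3, beside 76.3%. When the window ended 100 bp downstream of the TSS, 17 of the 63 had one, beside 10.3% of all protein-coding genes. Counts by role ranged widely, and the difference between roles was not tested. The roles were not matched for promoter sequence. Of the 14 secreted modulators, which include the Sfrp, Dkk and Rspo families, only Rspo1 had a summit near a TSS. It also had the highest promoter GC content of the 14, 64.0%, ahead of Sfrp2 at 60.6%. Its longest run of G and C, 23 bp, was shorter than the 25 bp of Rspo3 and of Rspo4, which had no summit. Of the 12 nuclear factors 9 had a summit near a TSS, among them Tcf7, Tcf7l1 and all 4 Tle co-repressors. So did 5 of the 7 planar cell polarity genes (Prickle1, Prickle2, Celsr1, Celsr2 and Celsr3). Among other membrane proteins the count was 7 of 11, among other cytoplasmic components 6 of 12, among secretion genes 1 of 3 and among target genes 1 of 4. The 5 with the highest fold enrichment were Ctnnbip1, an inhibitor of β-catenin binding to Tcf proteins (5.50, 30 reads), Tnks, a tankyrase that marks Axin for degradation (5.49, 27 reads), Lgr4, a receptor for R-spondins (5.31, 23 reads), Cdx1, a homeobox target gene (5.24, 25 reads), and Pygo1, a co-activator of β-catenin (5.23, 29 reads). A TSS of Gm9939 also lay within 1 kb of the Tnks summit. All 5 fold enrichments were below those of Axin1 and Ctnnb1.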

How the data were processed

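DSB-seq of Chd1 KO and control ES cells (2 replicates each) was read from the authors' peak lists. Per the methods of the study, reads were mapped to mm9 with Bowtie2, filtered on mapping quality, reduced to 1 read per position, combined over replicates and extended to 200 bp, and peaks were called with MACS2 at a q-value of 0.05 and removed from blacklisted regions. The deposited fold enrichment is a ratio, the reads plus 1 to the local background plus 1 in the same library, which keeps it under the plain quotient. The deposited −log10 p-value and −log10 q-value are those of the summit, and the deposited summit offset is a distance in bp. ChIP-seq and signal tracks were not analyzed here.

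The fold enrichment and Poisson p-value of a peak gave the whole number of reads at its summit and their background (largest error 1.35e-04 in −log10 p), and depth from the lowest background. The functions were tested on simulated data. TSSs came from GENCODE M1 (every transcript), sequence from mm9 read with pysam 0.24.0 and samtools 1.23.1, and statistics from Python 3.11.15 (SciPy 1.17.1, statsmodels 0.14.6, pandas 2.3.3, NumPy 2.4.6). Figures used Matplotlib 3.10.9. Every member is named, with values for each with a summit, for the 5 without one near a TSS that had the highest GC content, and for the 5 strongest other pathway genes. Untranslated exon sequence is printed only as runs of at most 30 bp, which shortened the windows of Wnt5b, Fzd3, Axin1, Ctnnb1 and Gsk3b, and Ctnnb1 was added after its values were seen. The members and lists were chosen with earlier results of these data known. The sequence of 1 further run is not reported here.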

Additional observations from a re-analysis of the deposited data

How the results depend on the processing

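Of 28 alternative values, 20 stayed within 1.5 times of the value reported and in its direction. Requiring a fold enrichment of at least 5 left 5 of the 40 members (Wnt2b, Wnt5b, Fzd3, Axin1 and Ctnnb1) beside 4.87% of all genes, and 5 of the 63 other pathway genes. When the window ended 100 bp downstream of the TSS, 17 of the 63 other genes and 16 of the 40 members (without Wnt4) had a summit, beside 10.3% of all genes. Over the other window, TSS and threshold settings 16 to 18 members had a summit, beside 14.2% to 16.6% of all genes. The difference in median GC content was 5.69 percentage points within 500 bp of the outermost TSS, that in the longest run 2.00 bp within 500 bp of a TSS, and that in gene length 7.35 kb by transcripts. The median summit position was 51.0 bp with the outermost TSS, a reversed side, and −7.0 bp with peak midpoints. The cause of these shifts was not tested. No paired analysis was possible because the peak lists analyzed here were called on combined replicates, and for the same reason no replicate could be left out. The weakest Chd1 KO peaks had 13 reads, so weaker sites are not seen.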

Other observations

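Among the 63 other pathway genes, 6 carried a Chd1 KO summit inside the gene body and more than 1 kb from their TSSs. Over all protein-coding genes the share was 4.14%. In 2 of the 63, Daam1 and Tcf7l2, the summit was in the gene body only, beside 2.88% of all protein-coding genes. The strongest gene-body summits lay in introns of Daam1, a formin downstream of Dishevelled (26 reads, fold enrichment 6.45), and of Ror2, a Wnt5a receptor (32 reads, fold enrichment 6.20). Both fold enrichments were higher than that of every summit near a TSS of a pathway gene except Axin1, while the 26 reads of Daam1 were fewer than the 31 of Ctnnb1. Tle4 had 2 intron summits, each with 20 reads and a fold enrichment of 5.02, and Prickle2 had 1 with the same values. The longest run of G and C under these 3 peaks was 25, 30 and 32 bp. These genes were named after their values were seen.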
